A study of Caenorhabditis elegans with 12 samples.

Results

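The transcripts of 29 genes of spermatogenesis and sperm function were followed in whole young adult Caenorhabditis elegans in which genotype was crossed with feeding RNAi. The genes were picked by name from published roles, with earlier results of these data known, and all 29 are protein coding and were found by WormBase gene ID in each of the 5 deposited tables, which list 24619 genes between them. There were 4 groups of 3 libraries. Strain BB20 carries the deletion allele ok735 of adr-2, which encodes the catalytic adenosine-to-inosine RNA-editing enzyme of this animal, and its groups are called adr-2(-) sqd-1 RNAi and adr-2(-) control RNAi. Strain N2 supplied the groups wild-type sqd-1 RNAi and wild-type control RNAi. In both strains sqd-1, the gene of an RNA-binding protein, was knocked down by feeding from hatching, and control animals were fed an empty vector. The growth time is given as 72 h in the protocol and as 60 h in the design text, a disagreement that cannot be settled here. Nothing in the labels says that replicates were separate cultures, so p-values measure the spread between these libraries, which may be technical.

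A C. elegans hermaphrodite makes sperm first, during larval life, and then switches its germ line to oocytes, so that a young adult stores finished sperm while transcribing oocyte genes. Sperm genes are transcribed in spermatocytes before the meiotic divisions. The products are packed into fibrous bodies and membranous organelles that are parted into the budding spermatids, which later gain motility on activation and then carry the surface proteins that meet the egg. In RNA of whole animals, a change in the number of cells of a type and a change of RNA per cell cannot be told apart.

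The libraries held 29042770 to 33984832 reads, of which 28.97% to 57.8% fell on ribosomal RNA genes, and the rest were spread over the other genes. Levels below are normalized reads, put on one scale over the 12 libraries. The knockdown target sqd-1 had 1863, 1106 and 1240.5 normalized reads in adr-2(-) sqd-1 RNAi, against 11472, 29363 and 18585 in adr-2(-) control RNAi. It had 1302, 1342 and 1337 in wild-type sqd-1 RNAi, against 11948, 15266 and 13789 in wild-type control RNAi. The adr-2 gene had 0, 4 and 0 reads in adr-2(-) sqd-1 RNAi and 2, 2 and 2 in adr-2(-) control RNAi, against 331, 533 and 465 in wild-type sqd-1 RNAi and 829, 794 and 956 in wild-type control RNAi. Every library matched its labels in both genes.

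In wild-type animals, sqd-1 RNAi was accompanied by higher levels of nearly the whole set. Of the 29 genes, 28 rose and 0 fell (limma, Benjamini-Hochberg adjusted p under 0.05 over 14489 genes), while 27.3% of all genes tested were called higher and 33.8% lower. Fold changes below are log2 values ± SE with limma's adjusted p, on the log2(value + 1) scale. The median log2 fold change of the 29 genes was 1.68, against 0.04 over all genes tested. At least a doubling was seen in 24 of the 29, against 18.5% of all genes. The 3 sqd-1 RNAi libraries lay wholly above the 3 control RNAi libraries for 28 of the 29 genes, as they did for 33.2% of all genes. The gene that neither rose nor separated was cpb-1. In the authors' deposited table, 28 of the 29 genes were higher at an adjusted p under 0.05, as were 20.6% of the genes that have one there.

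**Figure D1:**
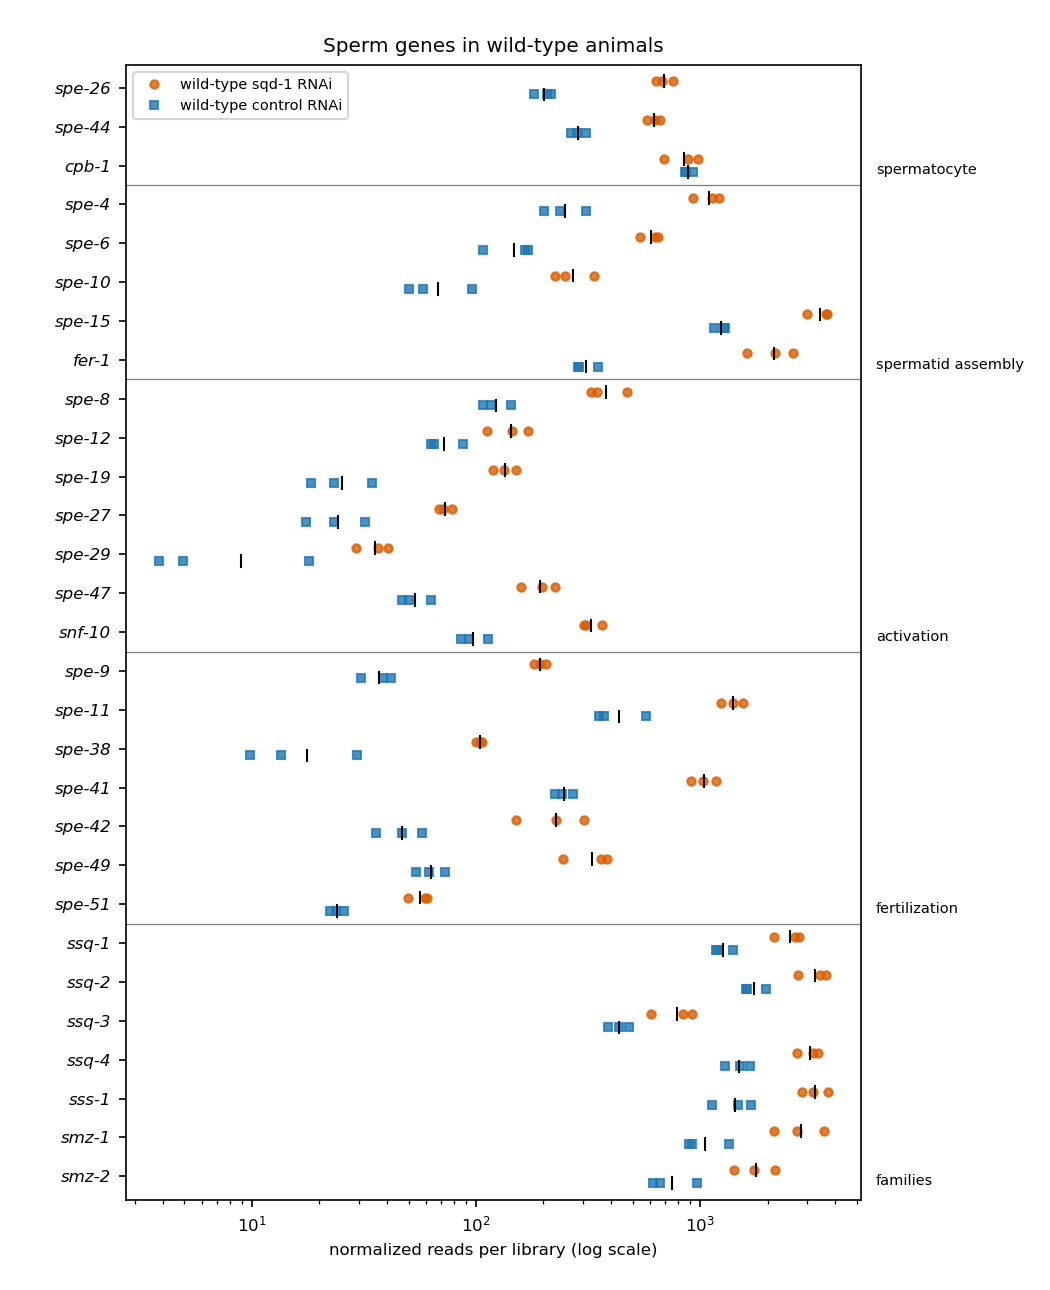
Normalized reads per library (log axis) of the 29 sperm genes in wild-type sqd-1 RNAi (circles, upper row of each gene) and wild-type control RNAi (squares, lower row). Black ticks are means of 3 libraries, and genes are grouped by role. The circles stand to the right of the squares without overlap for 28 genes, and only cpb-1 overlaps.

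The 5 genes of spermatid assembly all rose, with a median log2 fold change of 2.01. The gene fer-1 encodes a ferlin needed for membranous organelles to fuse with the sperm surface. It was counted in this class for its part in these organelles, not in assembly itself, and it showed the highest fold change of the 29. It had 1622, 2603 and 2148 normalized reads in wild-type sqd-1 RNAi, against 289, 286 and 349.5 in wild-type control RNAi (log2 fold change 2.72 ± 0.191, adjusted p = 1.30e-06). The lowest sqd-1 RNAi library thus exceeded the highest control library several times over. The presenilin-family gene spe-4, which keeps fibrous bodies and membranous organelles together, had 930.3, 1219 and 1129 normalized reads in sqd-1 RNAi, against 237, 201 and 309 in control RNAi (log2 fold change 2.10 ± 0.191, adjusted p = 3.12e-06). All 3 spe-4 values on sqd-1 RNAi were high, and replicate 1 was the lowest of them.

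The casein kinase gene spe-6, which is needed to assemble the major sperm protein into fibrous bodies, had 541, 628 and 646 normalized reads in wild-type sqd-1 RNAi, against 170.4, 108 and 166 in wild-type control RNAi (log2 fold change 2.01 ± 0.197, adjusted p = 4.22e-06). The palmitoyltransferase gene spe-10, which acts in the same organelle complexes, had 224, 336 and 251 in sqd-1 RNAi, against 58.1, 50.3 and 95.6 in control RNAi (log2 fold change 1.97 ± 0.254, adjusted p = 2.44e-05). For spe-15, an unconventional myosin that sorts contents between spermatid and residual body, the values were 3636, 3671 and 3003 in sqd-1 RNAi, against 1282, 1157 and 1293 in control RNAi (log2 fold change 1.42 ± 0.153, adjusted p = 7.18e-06). None of these 3 genes overlapped between the groups, and spe-15 had the tightest control libraries of them.

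All 7 genes of sperm activation rose, with a median of 1.69 and a range of 0.94 to 2.37 on the log2 scale. The genes spe-8, spe-12, spe-19, spe-27 and spe-29 belong to the pathway through which a hermaphrodite's spermatids receive the activating signal, and spe-8 encodes its non-receptor tyrosine kinase. The spe-8 gene had 348, 470.4 and 324 normalized reads in wild-type sqd-1 RNAi, against 107, 117 and 143 in wild-type control RNAi (log2 fold change 1.58 ± 0.202, adjusted p = 2.29e-05). The membrane protein gene spe-19 had 134, 152 and 119 in sqd-1 RNAi, against 18.4, 23.3 and 34.3 in control RNAi (log2 fold change 2.37 ± 0.263, adjusted p = 8.63e-06). Both genes were separated by group, and spe-19 had the wider relative gap.

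The other 3 genes of this hermaphrodite pathway also rose. The single-pass membrane protein gene spe-12 had 145, 171 and 112 normalized reads in wild-type sqd-1 RNAi, against 62.9, 65.0 and 87.4 in wild-type control RNAi (log2 fold change 0.94 ± 0.228, adjusted p = 0.00289). The small soluble protein gene spe-27 had 71.4, 68.7 and 78.1 in sqd-1 RNAi, against 17.4, 23.3 and 31.9 in control RNAi (log2 fold change 1.55 ± 0.271, adjusted p = 2.59e-04). For spe-29, which encodes a small membrane protein, the reads behind the values were 37, 33 and 55 in sqd-1 RNAi, against 4, 4 and 22 in control RNAi (log2 fold change 2.12 ± 0.472, adjusted p = 0.00160). Those control counts were near the floor of 3 reads used here, apart from replicate 3, so the size of the spe-29 change is poorly fixed.

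Among the remaining activation genes, spe-47, whose product carries a major sperm protein domain and helps time activation, had 224, 197 and 158 normalized reads in wild-type sqd-1 RNAi, against 50.3, 46.6 and 62.9 in wild-type control RNAi (log2 fold change 1.80 ± 0.214, adjusted p = 1.42e-05). The transporter gene snf-10, needed when a male's seminal protease activates sperm, had 302, 363 and 308 in sqd-1 RNAi, against 113, 85.9 and 93.1 in control RNAi (log2 fold change 1.69 ± 0.182, adjusted p = 7.32e-06). Neither gene overlapped between the groups.

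All 7 genes of fertilization and egg activation rose, with a median of 2.19. The gene spe-9 encodes a sperm surface protein with EGF-like repeats, and it had 181, 204 and 194 normalized reads in wild-type sqd-1 RNAi, against 41.6, 30.7 and 38.4 in wild-type control RNAi (log2 fold change 2.33 ± 0.204, adjusted p = 2.68e-06). For the multi-pass membrane protein gene spe-38, which is required on sperm for fertilization, the values were 100.2, 107 and 105 in sqd-1 RNAi, against 13.6, 9.82 and 29.4 in control RNAi (log2 fold change 2.60 ± 0.339, adjusted p = 2.66e-05). The spe-38 values on sqd-1 RNAi were nearly equal, and its control values were the more scattered ones. The sperm TRPC calcium channel gene spe-41 had 1033, 1180.5 and 909.7 in sqd-1 RNAi, against 242, 225 and 271 in control RNAi (log2 fold change 2.04 ± 0.168, adjusted p = 2.17e-06).

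The genes spe-42 and spe-49 encode related multi-pass sperm membrane proteins. The spe-42 values were 151, 304 and 226 normalized reads in wild-type sqd-1 RNAi, against 35.8, 46.6 and 57.2 in wild-type control RNAi (log2 fold change 2.19 ± 0.271, adjusted p = 1.81e-05). The spe-49 values were 244, 361 and 385 in sqd-1 RNAi, against 61.9, 54.003 and 72.7 in control RNAi (log2 fold change 2.32 ± 0.217, adjusted p = 3.54e-06). Replicate 1 was the lowest sqd-1 RNAi library for both, and both still cleared every control library. The secreted sperm protein gene spe-51 rested on few reads throughout, at 49.6, 59.0 and 60.4 in sqd-1 RNAi, against 22.3, 25.8 and 23.7 in control RNAi (log2 fold change 1.16 ± 0.247, adjusted p = 0.00112). The paternal-effect gene spe-11, whose product enters the egg with the sperm and is needed to start its development, had 1403, 1559 and 1239 in sqd-1 RNAi, against 574, 372 and 354 in control RNAi (log2 fold change 1.68 ± 0.191, adjusted p = 1.04e-05). The spe-11 and spe-51 groups did not overlap either.

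Of the 3 genes of the spermatocyte programme and the meiotic divisions, 2 rose. The gene spe-44 encodes a transcription factor that switches on sperm genes in spermatocytes, and it had 578, 626 and 661 normalized reads in wild-type sqd-1 RNAi, against 266, 309 and 281 in wild-type control RNAi (log2 fold change 1.08 ± 0.160, adjusted p = 7.08e-05). The kelch-repeat gene spe-26, needed for spermatocytes to divide, had 678, 758 and 634 in sqd-1 RNAi, against 217, 181.6 and 207 in control RNAi (log2 fold change 1.73 ± 0.163, adjusted p = 3.56e-06). Both were higher in each sqd-1 RNAi library than in any control library. The translational regulator gene cpb-1, which spermatocytes need to pass through meiosis, had 691, 978 and 878 in sqd-1 RNAi, against 854, 927 and 861 in control RNAi. Its groups overlapped and it was not called (log2 fold change -0.10 ± 0.169, adjusted p = 0.606), with a sign that turned positive under TMM scaling (0.028), in edgeR (0.11; 0.10 with the replicate block) and without wild-type sqd-1 RNAi replicate 1 (0.036).

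The 7 members of sperm-specific families, whose transcripts are enriched in sperm-making animals, all rose, with a median of 1.01 and a range of 0.80 to 1.37 on the log2 scale. The PDZ-domain gene smz-1 had 2703, 3581 and 2142 normalized reads in wild-type sqd-1 RNAi, against 889, 918 and 1348 in wild-type control RNAi (log2 fold change 1.37 ± 0.217, adjusted p = 1.19e-04). Its relative smz-2 had 1739.6, 2166 and 1412 in sqd-1 RNAi, against 616, 665 and 970.2 in control RNAi (log2 fold change 1.21 ± 0.211, adjusted p = 2.58e-04). For sss-1 the values were 3198, 3701 and 2841 in sqd-1 RNAi, against 1471, 1133 and 1682 in control RNAi (log2 fold change 1.16 ± 0.179, adjusted p = 9.93e-05). All 3 genes were high in each sqd-1 RNAi library. In the ssq family, ssq-1 had 2654, 2762 and 2124 normalized reads in sqd-1 RNAi, against 1205, 1177 and 1403 in control RNAi (log2 fold change 0.95 ± 0.164, adjusted p = 2.30e-04). The ssq-2 values were 3433, 3640.1 and 2723 in sqd-1 RNAi, against 1606, 1613 and 1974 in control RNAi (log2 fold change 0.87 ± 0.169, adjusted p = 5.73e-04). All 4 ssq genes were free of overlap between the groups, and ssq-3 (log2 fold change 0.80 ± 0.188, adjusted p = 0.00230) and ssq-4 (log2 fold change 1.01 ± 0.161, adjusted p = 1.23e-04) moved by similar amounts. How reads shared by related ssq or smz copies were counted is not given in the sources used here, so these values are uncertain to that extent.

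Within wild-type pairs of the same replicate number, 28 of the 29 genes were higher on sqd-1 RNAi in 3 of 3 pairs, as were 41.2% of all genes. The pair medians of the log2 difference were 1.64 in pair 1, 2.06 in pair 2 and 1.32 in pair 3. On recovered reads edgeR called 28 higher, against 36% of all genes, and DESeq2 called 28, against 26.5%. The count stood at 28 when any single library was left out. It was 16 in one fit of all 12 libraries, in which the wider adr-2(-) libraries enter the error and 13.2% of all genes were higher. The median of all genes was 0.17 under TMM scaling and 0.24 in edgeR, against 0.04 here, and the median of the 29 genes was 1.81 and 1.86 there. TMM scaling gave 4670 genes higher and 4399 lower, and edgeR 5215 and 4169, against 3957 and 4892 here.

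Other genes of sperm and of neighbouring germ cell types were read from lists of known genes. Of 17 further sperm genes with a measured level, 13 rose and 2 fell in wild-type (median 1.48). The activation gene spe-43 rose by 2.21 ± 0.250 and the cpb-1 relative cpb-2 by 2.17 ± 0.218 on the log2 scale. Of 9 regulators of sperm fate and spermatocyte RNA, 6 rose and 3 fell. The Tob-family gene fog-3, which commits germ cells to sperm, had 344, 528 and 547 normalized reads in wild-type sqd-1 RNAi, against 26.1, 29.5 and 31.9 in wild-type control RNAi (log2 fold change 3.91 ± 0.221, adjusted p = 3.81e-07). The male piRNA transcription factor gene snpc-1.3 had 175, 364 and 299 in sqd-1 RNAi, against 19.4, 14.7 and 26.1 in control RNAi (log2 fold change 3.67 ± 0.292, adjusted p = 1.89e-06). Both were low in each control library, whereas the sex-determination gene fem-3 fell (log2 fold change -1.96 ± 0.224, adjusted p = 1.09e-05).

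Markers of oocytes moved the other way. All 13 oocyte genes fell in wild-type, with a median of -2.90, and 7 of 9 markers of meiotic and mitotic germ cells fell. The 29 sperm genes summed to 28154 to 35921 normalized reads in wild-type sqd-1 RNAi, against 11536 to 14403 in wild-type control RNAi. The 13 oocyte genes summed to 12903 to 33447 in wild-type sqd-1 RNAi, against 128472 to 178883 in wild-type control RNAi. Neither sum overlapped between the groups. The maternal RNA-binding gene oma-2 changed by -3.26 ± 0.358, and spn-4 by -3.07 ± 0.278 on the log2 scale. The part of the oocyte and germ cell changes in the levels of the sperm genes was not tested.

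Markers of male tissue were read as well. Of 8 markers of male neurons, 1 passed the filter on low values, lov-1, and it was not called (log2 fold change 0.18 ± 0.434, adjusted p = 0.730). The 8 genes summed to 24.3 to 38.7 normalized reads in wild-type sqd-1 RNAi, against 15.96 to 22.3 in wild-type control RNAi, and cwp-1, cwp-2 and cwp-3 each had at most 1.76 normalized reads in any library. The 2 seminal fluid genes summed to 306 to 347 normalized reads in wild-type sqd-1 RNAi, against 190.2 to 257 in wild-type control RNAi. Of them, swm-1 rose (log2 fold change 0.50 ± 0.171, adjusted p = 0.0222) and the male protease gene try-5 was not called (log2 fold change 1.13 ± 0.499, adjusted p = 0.0642). Among other tissues, 3 of 5 body muscle genes and 1 of 6 intestinal genes rose, with medians of 0.39 and -0.17.

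**Figure D2:**
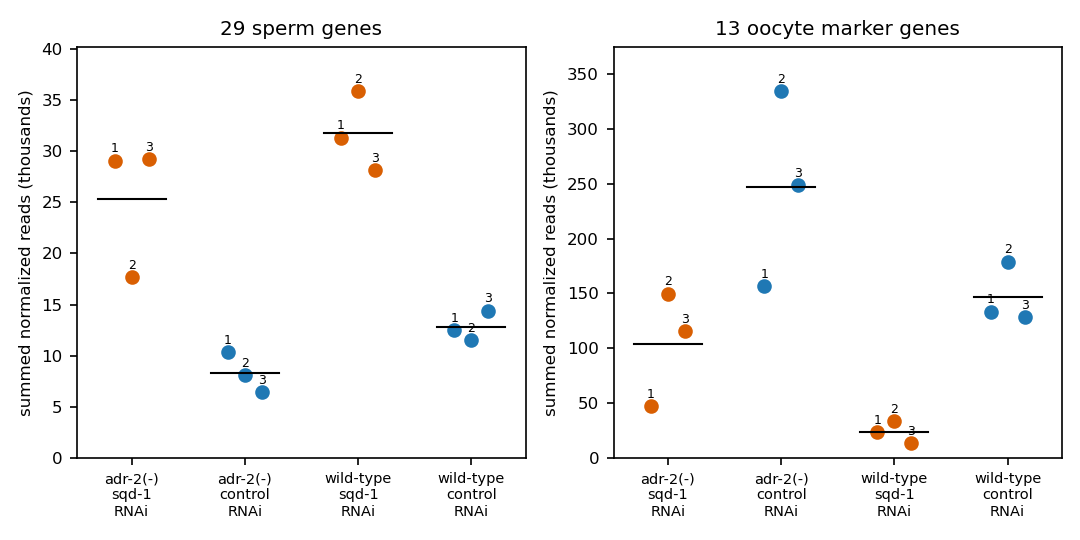
Summed normalized reads per library (axis in kiloreads) of the 29 sperm genes (left) and of 13 oocyte marker genes (right), with the replicate number beside each point and a line at the mean of 3. In each genotype the sqd-1 RNAi points lie above control RNAi for the sperm genes (17697 against 10362 at the closest in adr-2(-)) and below it for the oocyte genes.

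In adr-2(-) animals most of the sperm genes rose on sqd-1 RNAi once libraries of the same replicate number were compared with each other, while the libraries scattered widely. The spe-29 gene did not pass the filter, with 16, 6 and 21 reads in adr-2(-) sqd-1 RNAi, against 5, 1 and 1 in adr-2(-) control RNAi. Of the other 28 genes, 0 were called by limma without a replicate term (20 at an unadjusted p under 0.05, against 21.2% of all genes), where 0.0284% of 14068 genes were called. Same-numbered libraries of the 2 adr-2(-) groups deviated together, and with the replicate number as a block 24 of the 28 genes rose and 0 fell, while 17.1% of all genes were called higher and 28.5% lower. The median log2 fold change of the 28 was 2.20, against -0.03 over all genes tested. The edgeR test called 0 of 28 without the block, where it called 0.0213% of all genes. With the block edgeR called 25 of 28 higher, against 22% of all genes, and DESeq2 without it called 20, against 9.35%. Of the 29 genes, 19 were higher in the authors' deposited table, as were 8.11% of genes with an adjusted p there. Without both adr-2(-) replicate 2 libraries, an alternative chosen after seeing the data, 25 of 28 were higher with the block, against 13.8% of all genes, and the median was 2.58. Without the block limma then called 0.

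The adr-2(-) sqd-1 RNAi libraries lay wholly above the adr-2(-) control RNAi libraries for 16 of the 28 genes, as they did for 13.3% of all genes. Within pairs, 25 of 28 were higher in 3 of 3 pairs, as were 30.9% of all genes. The pair medians were 2.02 in pair 1, 1.59 in pair 2 and 2.85 in pair 3. The genes that were not higher in all 3 pairs were cpb-1, spe-44 and spe-15. Fold changes in the next paragraphs come from the fit with the block. The fit planned beforehand had no block, and in it limma called 0 of these genes. The block was a listed alternative, and the pairing behind it was taken from these same libraries. The adjusted p-values with the block therefore depend on a choice made after the planned fit was seen.

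**Figure D3:**
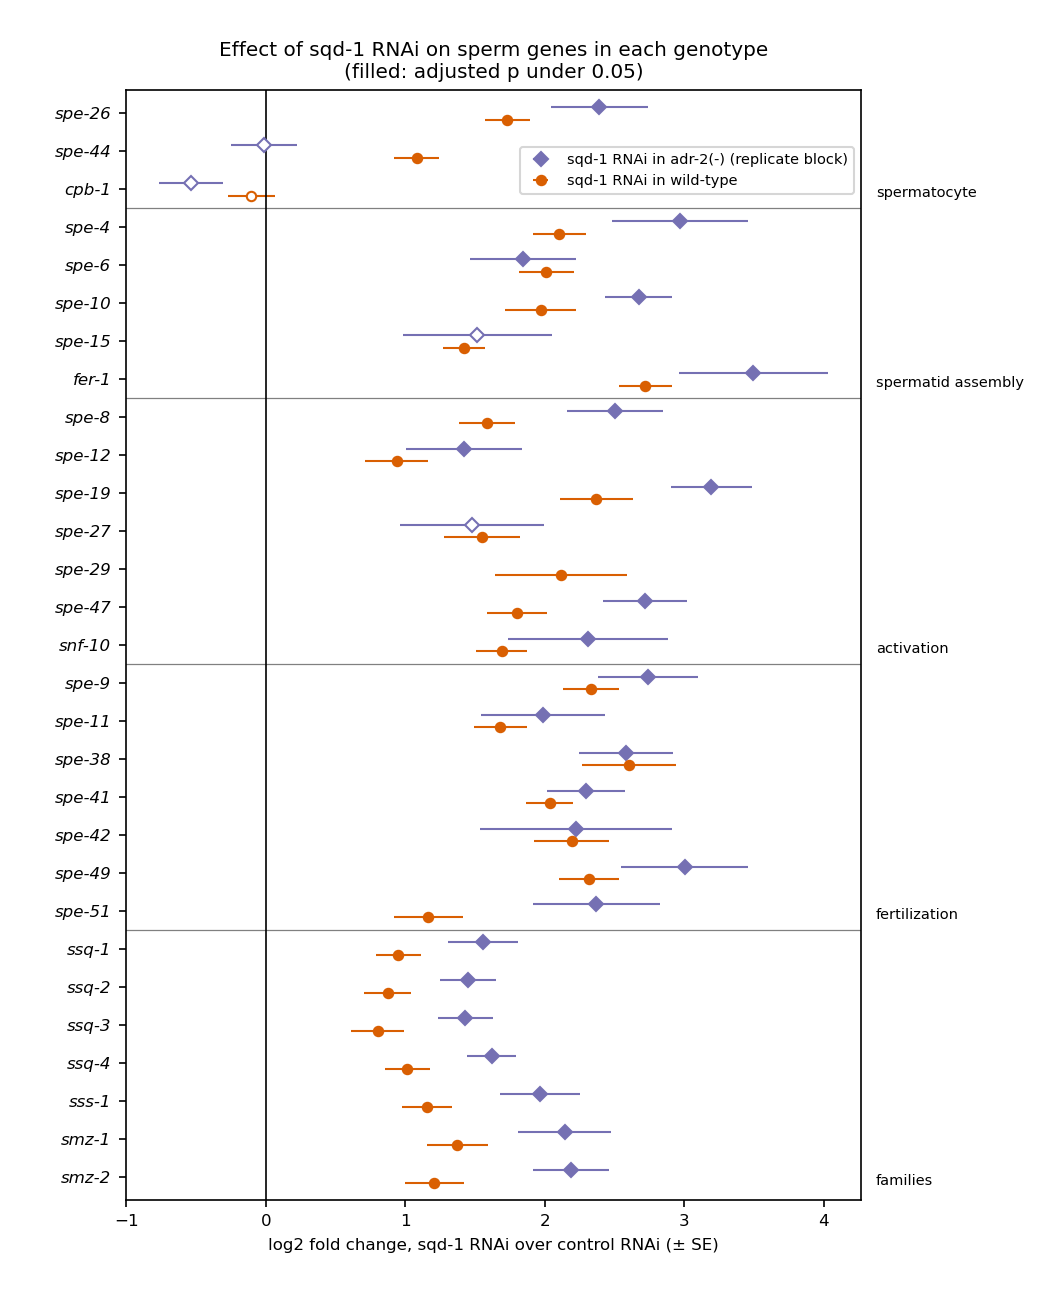
Log2 fold change of sqd-1 RNAi over control RNAi (± SE) for each sperm gene in adr-2(-), fitted with the replicate block (diamonds, upper), and in wild-type, fitted without it (circles, lower). Filled symbols have an adjusted p under 0.05. The points lie right of 0 except for cpb-1 in both genotypes and spe-44 in adr-2(-), signs that TMM scaling turns for cpb-1 in wild-type (0.028) and spe-44 in adr-2(-) (0.026), and spe-29 has no adr-2(-) point because it did not pass the filter.

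Spermatid assembly genes in adr-2(-) had a median of 2.67, and 4 of 5 rose with the block. The gene fer-1 had 1922, 1055 and 1313 normalized reads in adr-2(-) sqd-1 RNAi, against 191, 249 and 40.4 in adr-2(-) control RNAi (log2 fold change 3.50 ± 0.532, adjusted p = 0.00807 with the block, adjusted p = 0.0677 without it). The spe-4 values were 820.0, 646 and 715 in sqd-1 RNAi, against 139, 175 and 33.2 in control RNAi (log2 fold change 2.97 ± 0.487, adjusted p = 0.00873 with the block, adjusted p = 0.0714 without it). Both genes were separated by group, and control replicate 3 was the lowest library for each. The spe-10 gene had 253, 85.0 and 200.3 in sqd-1 RNAi, against 43.5, 14.5 and 25.3 in control RNAi (log2 fold change 2.67 ± 0.240, adjusted p = 0.00784). For spe-6 the values were 495, 119 and 454 in sqd-1 RNAi, against 125, 70.5 and 68.8 in control RNAi (log2 fold change 1.85 ± 0.381, adjusted p = 0.0140). Replicate 2 was the lowest sqd-1 RNAi library for both, and it fell below a control library for spe-6 but not for spe-10. The spe-15 values were 3141, 452 and 3094 in sqd-1 RNAi, against 884, 508 and 448 in control RNAi, with a low replicate 2 on sqd-1 RNAi, and the gene was not called (log2 fold change 1.52 ± 0.534, adjusted p = 0.0661).

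Of 6 activation genes that passed the filter in adr-2(-), 5 rose with the block (median 2.41). The spe-19 gene had 118, 109 and 93.2 normalized reads in adr-2(-) sqd-1 RNAi, against 14.5, 12.7 and 7.12 in adr-2(-) control RNAi (log2 fold change 3.19 ± 0.290, adjusted p = 0.00784 with the block, adjusted p = 0.0627 without it). The spe-8 gene had 348, 349 and 392 in sqd-1 RNAi, against 75.3, 97.6 and 36.4 in control RNAi (log2 fold change 2.51 ± 0.343, adjusted p = 0.00784 with the block). These were among the most even genes of the set on adr-2(-) sqd-1 RNAi. The snf-10 gene, by contrast, had 317, 26.3 and 306 in sqd-1 RNAi, against 69.5, 14.5 and 20.6 in control RNAi, so that its groups overlapped through replicate 2, and limma called it with the block only (log2 fold change 2.31 ± 0.574, adjusted p = 0.0236, against an adjusted p of 0.256 without it). The spe-12 gene had 147, 11.1 and 187 in sqd-1 RNAi, against 62.8, 7.23 and 34.8 in control RNAi (log2 fold change 1.42 ± 0.414, adjusted p = 0.0378), and its groups overlapped in the same way. The spe-47 gene had 181, 282 and 129 in sqd-1 RNAi, against 35.7, 52.4 and 11.9 in control RNAi (log2 fold change 2.72 ± 0.302, adjusted p = 0.00784), with replicate 2 the highest library of each group and no overlap. The spe-27 values were 49.99, 9.11 and 47.8 in sqd-1 RNAi, against 25.1, 5.42 and 6.33 in control RNAi, and the gene was not called in either fit (log2 fold change 1.48 ± 0.516, adjusted p = 0.0644 with the block).

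All 7 fertilization genes rose with the block in adr-2(-) (median 2.37). The spe-38 gene had 62.5, 33.4 and 47.8 normalized reads in adr-2(-) sqd-1 RNAi, against 7.72, 7.23 and 6.33 in adr-2(-) control RNAi (log2 fold change 2.58 ± 0.337, adjusted p = 0.00784). The spe-9 gene had 161, 45.5 and 119 in sqd-1 RNAi, against 23.2, 10.8 and 10.3 in control RNAi (log2 fold change 2.74 ± 0.359, adjusted p = 0.00784). Both genes were low in all 3 control libraries. The spe-11 gene had 1480.5, 62.8 and 1733 in sqd-1 RNAi, against 421, 34.3 and 188 in control RNAi (log2 fold change 1.99 ± 0.443, adjusted p = 0.0172 with the block, adjusted p = 0.428 without it). Replicate 2 was far below the other libraries of its group on either RNAi, so the spe-11 groups overlapped. The same held for spe-49, at 261, 17.2 and 203 in sqd-1 RNAi, against 34.8, 3.62 and 11.1 in control RNAi (log2 fold change 3.00 ± 0.456, adjusted p = 0.00807 with the block, adjusted p = 0.221 without it). For spe-42 the values were 216, 22.3 and 180.3 in sqd-1 RNAi, against 34.8, 19.9 and 11.9 in control RNAi (log2 fold change 2.22 ± 0.690, adjusted p = 0.0458), with a low replicate 2 on sqd-1 RNAi alone. The TRPC channel gene spe-41 had 1026, 322 and 911 in sqd-1 RNAi, against 201, 110.3 and 120.3 in control RNAi (log2 fold change 2.30 ± 0.280, adjusted p = 0.00784). Its groups did not overlap, and neither did those of spe-51, at 64.4, 10.1 and 61.6 in sqd-1 RNAi, against 6.76, 3.62 and 8.70 in control RNAi (log2 fold change 2.37 ± 0.457, adjusted p = 0.0117). The spe-51 values rest on 67, 10 and 80 reads, against 7, 2 and 11, so this separation is narrow.

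In the spermatocyte programme, 1 of 3 genes, spe-26, rose with the block, with 618, 62.8 and 561 normalized reads in adr-2(-) sqd-1 RNAi, against 148, 18.1 and 57.0 in adr-2(-) control RNAi (log2 fold change 2.39 ± 0.347, adjusted p = 0.00787). Its groups overlapped through replicate 2. The spe-44 gene had 446, 425 and 319.7 normalized reads in adr-2(-) sqd-1 RNAi, against 273, 606 and 403 in adr-2(-) control RNAi (log2 fold change -0.01 ± 0.236, adjusted p = 0.972), with a sign that turned positive under TMM scaling (0.026) and in edgeR (0.089). The cpb-1 gene had 772, 851 and 845 in sqd-1 RNAi, against 735, 1979 and 1250.1 in control RNAi (log2 fold change -0.54 ± 0.228, adjusted p = 0.107). Both groups overlapped, and control replicate 2 was the highest library for either gene. All 7 genes of sperm-specific families rose with the block, with a median of 1.62, from 1.43 for ssq-3 to 2.19 for smz-2. The smz-1 values were 2579, 4932 and 2878 in sqd-1 RNAi, against 826, 1641 and 336 in control RNAi (log2 fold change 2.14 ± 0.334, adjusted p = 0.00822), with replicate 2 high on either RNAi. For smz-2 they were 1723, 1727 and 1923 in sqd-1 RNAi, against 587, 399 and 276 in control RNAi (log2 fold change 2.19 ± 0.271, adjusted p = 0.00784). The sss-1 gene had 2868, 1275 and 3417 in sqd-1 RNAi, against 1139, 365 and 539.6 in control RNAi (log2 fold change 1.97 ± 0.284, adjusted p = 0.00787). Neither smz-2 nor sss-1 overlapped between the groups, whereas ssq-1 did, at 2145, 978 and 2396 in sqd-1 RNAi, against 1126, 322 and 581 in control RNAi (log2 fold change 1.56 ± 0.252, adjusted p = 0.00862).

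The same context lists were read in adr-2(-) with the block. Of the 17 further sperm genes, 12 rose and 2 fell, and of the 9 regulators of sperm fate and spermatocyte RNA, 6 rose and 3 fell. The fog-3 gene had 493, 465 and 465 normalized reads in adr-2(-) sqd-1 RNAi, against 16.4, 19.9 and 12.7 in adr-2(-) control RNAi (log2 fold change 4.83 ± 0.225, adjusted p = 0.00740), and it was called without the block too (adjusted p = 0.00763). All 13 oocyte genes fell with the block (median -1.29), and 0 were called without it (8 at an unadjusted p under 0.05). Their sum was 47169 to 149783 normalized reads in adr-2(-) sqd-1 RNAi, against 156509 to 334745 in adr-2(-) control RNAi. The sperm genes summed to 17697 to 29239 in adr-2(-) sqd-1 RNAi, against 6384 to 10362 in adr-2(-) control RNAi.

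**Figure D4:**
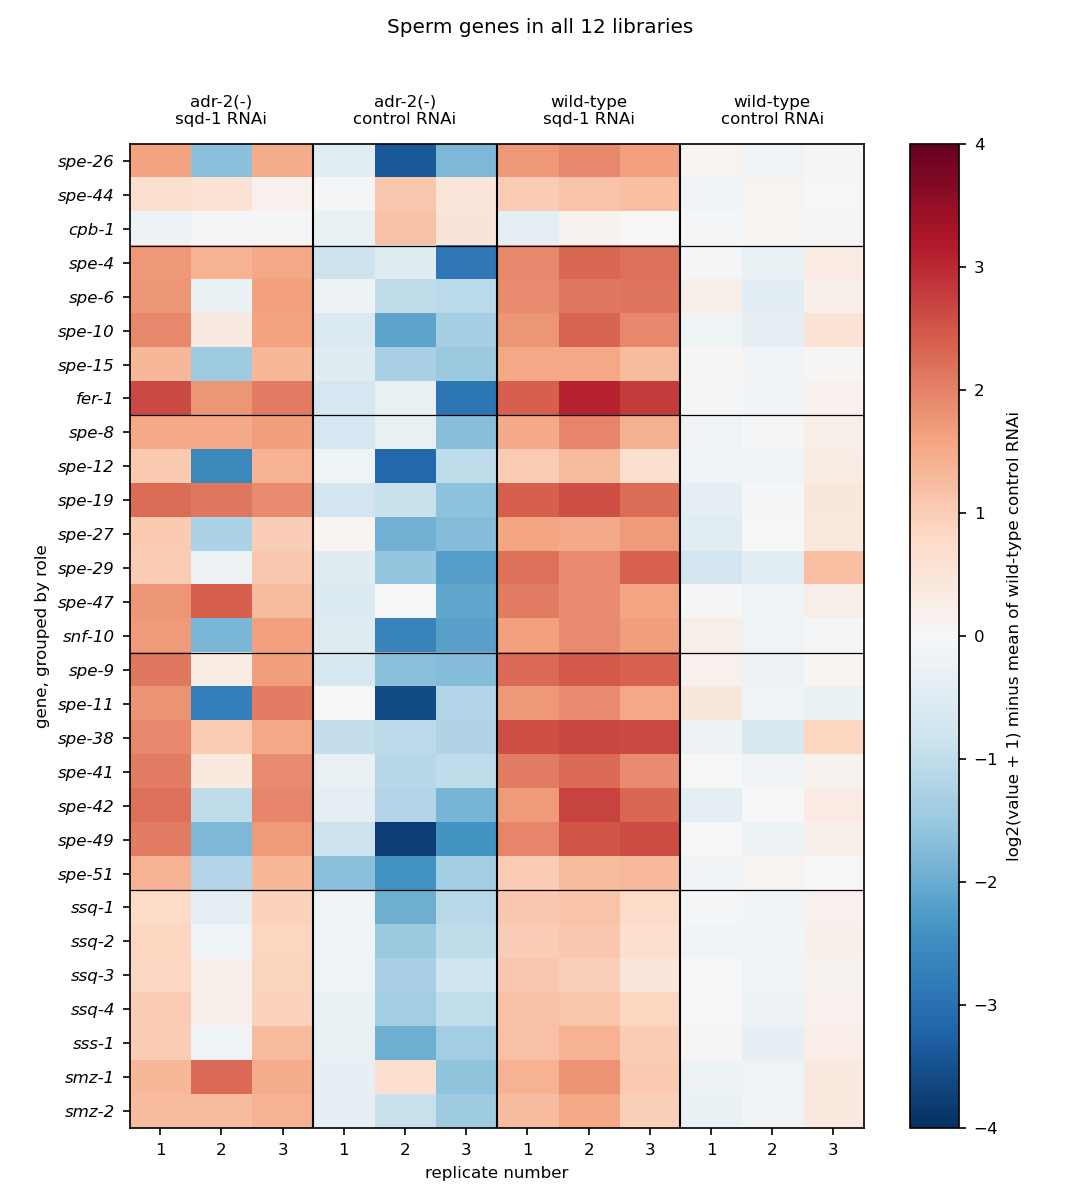
Heat map of log2(normalized reads + 1) minus the mean of wild-type control RNAi, for the 29 sperm genes (rows, by role) in the 12 libraries (columns). Red is higher and blue lower, from -4 to 4. The wild-type columns are even within a group for most genes, but not for spe-29 and spe-38 on control RNAi (SD 1.06 and 0.77). In contrast, adr-2(-) replicate 2 is blue for spe-11, spe-12, spe-26, spe-49 and snf-10 on both RNAi treatments.

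The sperm genes varied more among adr-2(-) libraries than among wild-type libraries. The median SD of log2 values over the set was 0.72 in adr-2(-) sqd-1 RNAi and 0.74 in adr-2(-) control RNAi, against 0.20 in wild-type sqd-1 RNAi and 0.22 in wild-type control RNAi. Over all genes it was 0.50 and 0.48 in the same adr-2(-) groups, against 0.22 and 0.21 in the wild-type groups. No test of these SDs was made. The spe-11 gene had the highest SD of the set in both adr-2(-) groups, 2.69 on sqd-1 RNAi and 1.83 on control RNAi.

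Part of this scatter lay in adr-2(-) replicate 2, and it was uneven over the genes. On sqd-1 RNAi, 16 of the 29 genes in replicate 2 were under 50% of the mean of replicates 1 and 3, and on control RNAi 10 were. The share of all genes under that mark was not computed, so these counts are a description only. The 10 genes under 50% on both were spe-10, spe-11, spe-12, spe-26, spe-27, spe-49, spe-51, snf-10, ssq-1 and sss-1. For spe-11, replicate 2 stood at 3.91% on sqd-1 RNAi and at 11.3% on control RNAi. For spe-12 it stood at 6.66% and 14.8%, and for spe-26 at 10.6% and 17.7%. Other genes of the set were not low in the same libraries. Replicate 2 was above the mean of the others for 5 genes on sqd-1 RNAi and for 9 on control RNAi, with smz-1 at 181% and 282% and spe-47 at 220.3% on control RNAi. Across the 29 genes the log2 deviations of replicate 2 on the 2 RNAi treatments had a Pearson r of 0.83 and a Spearman rho of 0.81, given as a description, since the 2 libraries share a replicate number and genes are not independent replicates. Over all genes, deviations of same-numbered adr-2(-) libraries correlated at 0.64 to 0.82, so moving together was not particular to the sperm genes. Exon length had a Spearman rho of -0.11 on sqd-1 RNAi and 0.19 on control RNAi with the deviations of the 29 genes in replicate 2. On sqd-1 RNAi the median was 16.1% for the fertilization genes, 37.5% for spermatid assembly, 38.5% for activation, 59.5% for the sperm-specific families and 105% for the spermatocyte genes, where spe-26 was the low one. The order of roles was not the same on control RNAi. There the medians were 64.8% for fertilization, 76.3% for spermatid assembly, 64.3% for activation, 56.1% for the families and 179% for the spermatocyte genes. Control replicate 3 of adr-2(-) was low for another subset, at 21.1% of the mean of replicates 1 and 2 for spe-4, 18.3% for fer-1 and 26.9% for spe-47. Control replicate 1 of adr-2(-) stood above both others for the set as a whole. The 29 genes held 0.0663% of its reads outside ribosomal RNA genes, against 0.0336% in replicate 2 and 0.0339% in replicate 3. In normalized reads, the scale used above, they summed to 10362, against 8092 in replicate 2 and 6384 in replicate 3, so the size of the gap depends on the scale. Against this, spe-44 and cpb-1 were lowest in control replicate 1.

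**Figure D5:**
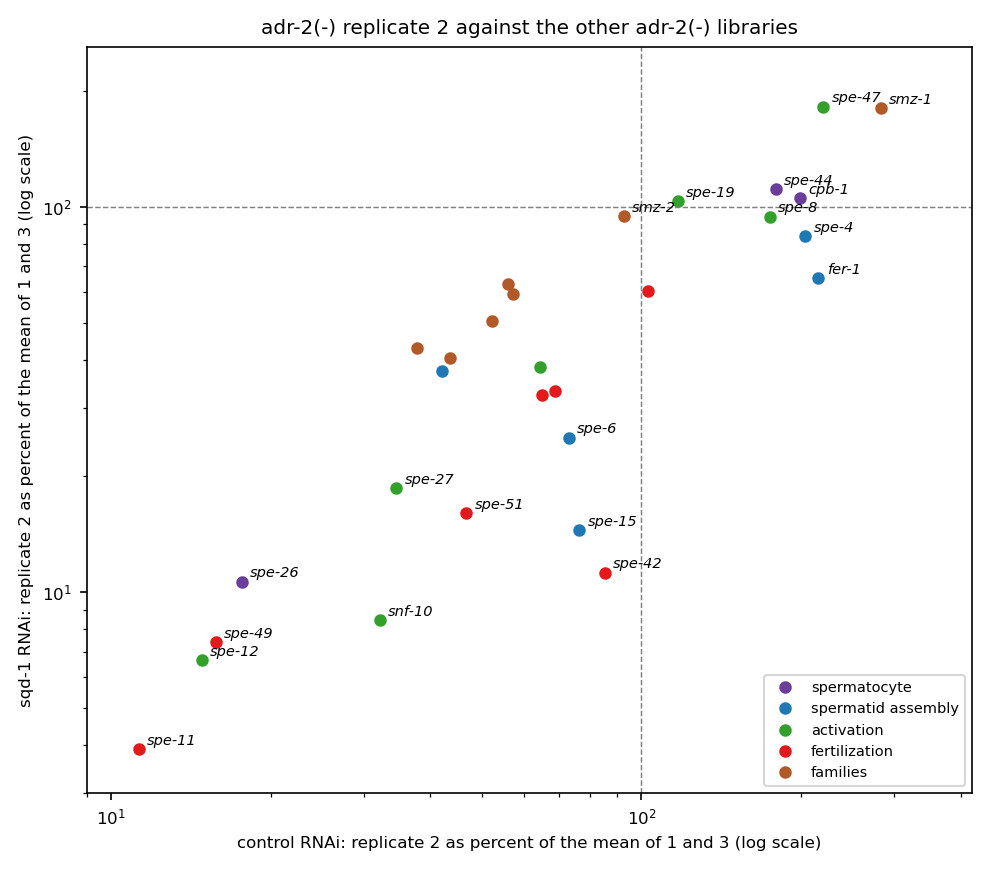
Level of each sperm gene (normalized reads) in adr-2(-) replicate 2 as a percent of the mean of replicates 1 and 3, on sqd-1 RNAi (vertical) and control RNAi (horizontal), both on log axes, coloured by role. Dashed lines mark 100%. The points run from spe-11 at 3.91% and 11.3% to smz-1 at 181% and 282%.

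Set against wild-type on control RNAi, adr-2(-) animals had lower sperm gene values that did not pass the test. None was called in limma, 0 of 28 (18 at an unadjusted p under 0.05, all lower), where 0.00737% of 13566 genes were called and 7.43% had an unadjusted p under 0.05. The median log2 fold change was -1.15, against -0.04 over all genes tested. Both edgeR and DESeq2 also called 0, each with 0.00737% of all genes called. The adr-2(-) libraries lay wholly below the wild-type libraries for 20 of 28 genes, as they did for 8.48% of all genes. The spe-49 gene had 34.8, 3.62 and 11.1 normalized reads in adr-2(-) control RNAi, against 61.9, 54.003 and 72.7 in wild-type control RNAi (log2 fold change -2.38 ± 0.716, adjusted p = 0.600). The spe-51 gene had 6.76, 3.62 and 8.70 in adr-2(-), against 22.3, 25.8 and 23.7 in wild-type (log2 fold change -1.87 ± 0.420, adjusted p = 0.600). Both genes stood apart by genotype, and adr-2(-) replicate 1 came nearest to the wild-type libraries for spe-49. In adr-2(-) control RNAi the reads behind these values were 36, 2 and 14 for spe-49 and 7, 2 and 11 for spe-51. Replicate 2 was thus under the floor of 3 reads, and the sizes of these differences are poorly fixed. The snf-10 gene had 69.5, 14.5 and 20.6 in adr-2(-), against 113, 85.9 and 93.1 in wild-type (log2 fold change -1.83 ± 0.581, adjusted p = 0.600), again without overlap. Positive differences were found for spe-44 (0.44 ± 0.286) and cpb-1 (0.41 ± 0.322) and for no other gene of the 28. The 13 oocyte genes had a median of 0.61 in the same comparison, with 0 called (4 at an unadjusted p under 0.05), and their part in the sperm gene values was not tested.

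On sqd-1 RNAi, limma called 0 of the 29 genes between adr-2(-) and wild-type (4 at an unadjusted p under 0.05, against 12.1% of 14697 genes). The share called over all genes was 0.0%. The median log2 fold change was -0.67, against -0.07 over all genes tested. It was -0.16 with replicate 2 of adr-2(-) sqd-1 RNAi left out. The edgeR and DESeq2 tests called 0 as well, with 0.0% and 1.76% of all genes called. The adr-2(-) libraries lay wholly below the wild-type ones for 9 genes, against 9.06% of all genes. The largest difference of those with an unadjusted p under 0.05 was in spe-29, at 16, 6 and 21 reads in adr-2(-) sqd-1 RNAi, against 37, 33 and 55 in wild-type sqd-1 RNAi (log2 fold change -1.54 ± 0.438, adjusted p = 0.388). The spe-38 gene had 62.5, 33.4 and 47.8 normalized reads in adr-2(-) sqd-1 RNAi, against 100.2, 107 and 105 in wild-type sqd-1 RNAi (log2 fold change -1.16 ± 0.296, adjusted p = 0.388), and spe-44 had 446, 425 and 319.7 in adr-2(-), against 578, 626 and 661 in wild-type (log2 fold change -0.67 ± 0.223, adjusted p = 0.388). In these 3 genes all adr-2(-) libraries lay below the wild-type ones. The fourth gene was spe-4 (log2 fold change -0.60 ± 0.211, adjusted p = 0.389). The oocyte markers, at a median of 2.20, were all at an unadjusted p under 0.05 and higher in adr-2(-), with 0 of 13 called.

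Animals with both the adr-2 deletion and sqd-1 RNAi were also set against wild-type on control RNAi. Without a replicate term limma called 0 of the 29 genes (13 at an unadjusted p under 0.05, all higher, against 15.9% of all genes in either direction), while 0.0422% of 14206 genes were called. The median log2 fold change was 0.71, against -0.09 over all genes tested. With replicate 2 of adr-2(-) sqd-1 RNAi left out, 24 genes were called higher, as were 10.9% of all genes, and the median was 1.498. The edgeR test called 4, against 1.3% of all genes, and DESeq2 9, against 5.72%. Of the 29 genes, 8 were higher in the authors' deposited table, as were 4.92% of genes with an adjusted p there. The groups stood apart upward for 13 genes and downward for 1, cpb-1, against 12.6% and 13.6% of all genes. The fer-1 gene had 1922, 1055 and 1313 normalized reads in adr-2(-) sqd-1 RNAi, against 289, 286 and 349.5 in wild-type control RNAi (log2 fold change 2.16 ± 0.268, adjusted p = 0.0559). This comparison shares each of its groups with another comparison above.

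The difference between genotypes in the response to the knockdown was tested as an interaction over the 12 libraries. In limma 0 of the 29 genes were called (2 at an unadjusted p under 0.05, against 1.44% of all genes), with 0.0% of 14266 genes called. The edgeR and DESeq2 tests also called 0, each with 0.0% of all genes called. The median interaction was 0.54 on the log2 scale, against 0.05 over all genes tested, with 22 of 29 positive, and it was 0.80 without both adr-2(-) replicate 2 libraries. With single libraries left out it was lowest, 0.02, without replicate 1 of adr-2(-) sqd-1 RNAi and highest, 0.94, without replicate 1 of adr-2(-) control RNAi. It was 0.10 without replicate 2 of adr-2(-) control RNAi, 0.88 without replicate 2 of adr-2(-) sqd-1 RNAi, and with replicate 3 left out it was 0.19 for adr-2(-) sqd-1 RNAi and 0.34 for adr-2(-) control RNAi. The 2 genes below an unadjusted p of 0.05 were spe-44 (log2 fold change -1.17 ± 0.377, adjusted p = 1.000) and smz-2 (log2 fold change 0.91 ± 0.404, adjusted p = 1.000). For spe-44, sqd-1 RNAi was accompanied by a log2 difference of -0.01 in adr-2(-), against 1.08 in wild-type. With the block its adjusted p was 0.201. A difference of the effect between genotypes was therefore not shown for any of these genes, with standard errors of 0.377 to 1.62.

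Levels of different genes were compared per length, as reads per kilobase of exon scaled to each library's reads outside ribosomal RNA genes (the usual per-length, per-depth unit RPKM). In wild-type sqd-1 RNAi the 6 highest genes of the set all came from the sperm-specific families, led by sss-1 at 277 ± 22.1, ssq-1 at 205 ± 18.3 and ssq-4 at 203 ± 16.5 (mean ± SD, n = 3). The ssq-1 and ssq-4 values differed by less than their SD, and sss-1 stood above both. The remaining family member, ssq-3, was lower at 52.1 ± 9.35, below spe-11 at 113 ± 6.84 and spe-15 at 69.4 ± 4.62. In wild-type control RNAi sss-1 had 97.8 ± 22.6, ssq-1 82.1 ± 10.4 and ssq-4 78.2 ± 12.9. The lowest genes of the set on sqd-1 RNAi were spe-51 at 2.81 ± 0.363, spe-42 at 6.99 ± 2.17 and spe-9 at 7.52 ± 0.474, and the last pair again lay within their spread. On control RNAi those 3 had 0.942 ± 0.0271, 1.14 ± 0.265 and 1.15 ± 0.225.

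The genes were not spread evenly over the genome (coordinates of the WBcel235 build). Chromosome IV held 11 of the 29 (37.9%, against 16.6% of the protein-coding genes), chromosome I 10 (34.5%, against 14.6%), chromosome V 5 and chromosome III 3. Chromosomes II and X held 0, although they hold 17.4% and 13.8% of the protein-coding genes in the tables. No test was made of this placement, since the genes were picked by name. The genes spe-44 (IV, 12452063 to 12454215, - strand) and smz-1 (IV, 12455050 to 12456299, + strand) are divergent neighbours 834 bases apart with 0 coding genes between them. On sqd-1 RNAi the neighbours both rose in wild-type, whereas in adr-2(-) with the block smz-1 rose and spe-44 was not called. The fer-1 gene lies at 8623012 to 8631202 on the - strand of chromosome I, and spe-11 at 5330578 to 5332169 on the - strand of the same chromosome.

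Exons of 9 of the 29 genes share bases with another annotated gene, and whether counting used strand is not given in the sources used here. For ssq-4, 54.5% of exon bases lie opposite the coding gene T28H11.7, which itself had a log2 fold change of 1.19 in wild-type. For spe-29, 34.1% lie opposite gon-1, which changed by 0.53. The spe-38 gene shares 8.85% of its exon bases on its own strand with impt-1, which moved the other way, at -1.67. Values of ssq-4 and spe-29 are the most uncertain for this reason. The other overlaps cover at most 13.4% of a gene's exons.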

How the data were processed

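Poly-A RNA of whole animals was prepared with a stranded kit, per the labels' protocols. Reads were aligned with STAR 2.7.10b and processed with DESeq2, per the submitters' processing notes; the read counter, strand setting, genome build and annotation are not given in the sources used here. The authors deposited 5 pairwise tables of 6 libraries, each with a normalized signal (reads divided by a size factor per table), a log2 fold change, its SE, a test statistic (a score with no fixed range, not used here), p-values and adjusted p-values, per the file headers. All 29 genes were matched by gene ID. The size factors were undone: of 572578 values above 0, 100% came out as whole reads (tolerance 0.001), and 0 differed between tables. One read is worth 0.710 to 1.72 normalized reads; reads carry no molecular identifiers, so the floor of 3 reads covers counting error only. Chi-square per degree of freedom between replicates was 21.6 to 480.8, so none is a copy.

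Each comparison was fitted within its own table, because tables were normalized separately, with limma 3.58.1 (R 4.3.3, lmFit and eBayes with trend) on log2(value + 1). Genes were kept where the 6 values averaged 10 or more, with Benjamini-Hochberg adjustment over all genes kept. The added 1 shrinks differences between low values. Estimates for low genes were still not always smaller than the authors' own. For spe-29 in wild-type the limma value given above was larger than the deposited log2 fold change of 1.89. Printed levels use one median-of-ratios scale over 12 libraries, which differs from the tables' own by -0.07 to 0.06 on the log2 scale; the interaction used it as well. Recovered reads were tested with edgeR 4.0.16 (quasi-likelihood) and DESeq2 1.42.0. Other alternatives were a pseudocount of 10, no filter, TMM scaling, the replicate block, one fit of 12 libraries and leaving out each library. Simulated counts were run for the wild-type comparison only, with the same spread setting for every gene and no replicate effect. They do not bear on the choice of fit in adr-2(-).

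Replicate numbers were taken to pair libraries within a genotype, from the data: deviations of same-numbered libraries correlated at 0.64 to 0.82 across genes in adr-2(-) and at 0.25 to 0.27 in wild-type, against at most 0.17 and -0.09 for unlike numbers. Between genotypes the same correlations were -0.52 to 0.21, and no pairing was taken. Genes named are the 29, sqd-1, adr-2 and, from each other list, up to 3 with the largest change in wild-type; cwp-1, cwp-2 and cwp-3 and the overlapping genes are named in addition. The members and all lists were chosen with earlier results of these data known. Of 23 further sperm genes listed, 17 were tested, and the rest are not analysed here.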

Additional observations from a re-analysis of the deposited data

Results flagged for a closer look

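The sperm-fate gene fog-3 stood out because every adr-2(-) library was below the mean log2 value of wild-type on control RNAi and, by a small margin, above it on sqd-1 RNAi: the genotype differences were 0.02 on sqd-1 RNAi and -0.87 on control RNAi, 0.85 apart on the log2 scale, and the test of that difference itself gave a limma adjusted p of 1.00 (0.296 with the replicate block).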

How the results depend on the processing

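Alternatives were run for the number of the sperm genes called and their median log2 fold change in 6 comparisons, and for each gene in wild-type animals. Scored as unchanged were 82 of 93 counts and 67 of 70 medians, and the other 3 medians moved. Of 377 single values, 373 kept their sign. A single gene's side of the threshold was not part of that score, and it did change for genes in one fit of all 12 libraries. The exceptions follow, and their cause was not tested unless the setting itself shows it. In wild-type, one fit of all 12 libraries called 16 genes, and a pseudocount of 10, which shrinks low genes, gave a median of 1.52. For cpb-1, which was not called, the log2 fold change was 0.028 under TMM scaling, 0.11 in edgeR, 0.10 in edgeR with the block, and -0.22 to 0.036 with single libraries left out. For sqd-1 RNAi in adr-2(-), limma called 0 genes, against 6 with a pseudocount of 10, 24 with the replicate block, 25 in edgeR with the block, 20 in DESeq2, 20 in one fit of all 12 libraries, and 25 without both replicate 2 libraries and with the block. For adr-2(-) on sqd-1 RNAi the median was -0.94 to -0.16 with single libraries left out. For adr-2(-) with sqd-1 RNAi against wild-type on control RNAi, edgeR called 4 genes, DESeq2 9, one fit of all 12 libraries 2, and single libraries left out gave counts of 0 to 24 and medians of 0.56 to 1.498.

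Counts over all genes moved as well. In wild-type, one fit of all 12 libraries gave 1886 higher and 3078 lower, against 3957 and 4892. In adr-2(-), limma gave 4 higher and 0 lower, against 394 and 9 with a pseudocount of 10, 2407 and 4004 with the block, 3093 and 3083 in edgeR with the block, 1316 and 119 in DESeq2, and 1604 and 1572 in one fit. On sqd-1 RNAi, DESeq2 gave 249 higher and 9 lower between genotypes, against 0 and 0. For the last comparison limma gave 4 and 2, edgeR 185 and 9, DESeq2 813 and 78, and one fit 207 and 41. Between genotypes the replicate numbers share nothing, and a block on them called 0 sperm genes. Low read counts limit spe-29, and in adr-2(-) control RNAi they limit other genes as well. Replicate 2 there had 2 reads for spe-49 and spe-51, 3 for spe-27, and 4 for spe-12 and spe-38. The wide adr-2(-) libraries limit every comparison that holds them.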
